A study of Mus musculus with 6 samples.

Results

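The ADAMTS proteases (a disintegrin and metalloproteinase with thrombospondin motifs) were examined as 10 genes, Adamts1, Adamts2, Adamts4, Adamts5, Adamts6, Adamts7, Adamts9, Adamts10, Adamts12 and Adamts15. They were chosen by symbol from the 53801 Ensembl genes in the count tables, and 8 of the 10 had enough counts to be tested. The data came from MC3T3-E1, a mouse pre-osteoblast line, in 6 RNA libraries. The 3 control libraries came from cells infected with a lentivirus carrying a scrambled non-silencing RNA, and the 3 Hdac4-knockdown libraries from cells infected with a lentivirus carrying an shRNA against Hdac4, which the labels call Hdac4-shRNA and the study's account of the sequencing Hdac4-shRNA3. All cells of both groups carried the same vector backbone with ZsGreen1 and a puromycin resistance gene, and were selected with 5 μg/mL puromycin for 7 days. Each group rests on 1 construct, and the labels describe its 3 RNA samples as independent without saying whether they came from separate infections. The p-values therefore set the difference between groups against the spread between these samples, which may be partly technical. They do not cover variation between constructs and may not cover that between infections. The comparison asks which genes differ between these Hdac4-knockdown and control MC3T3-E1 cells.

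ADAMTS proteases are secreted enzymes that cut proteins of the extracellular matrix. Each is made as a precursor with a propeptide, which furin-like convertases remove from many of them. Each uses a zinc ion held by histidines in its metalloprotease domain. The hyalectanases, among them ADAMTS1, ADAMTS4, ADAMTS5, ADAMTS9 and ADAMTS15, cut versican and aggrecan. ADAMTS2, ADAMTS3 and ADAMTS14 remove the N-propeptide of fibrillar procollagens, a step in making the collagen fibrils of bone and skin. ADAMTS7 and ADAMTS12 are paralogs that cut cartilage oligomeric matrix protein (COMP), and ADAMTS6 and ADAMTS10 are paralogs associated with fibrillin microfibrils.

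The zinc-binding stretch of the metalloprotease domain was read from the coding part of 1 GENCODE M21 transcript per gene, to show how the paralogs compared here are related. It was found once in each of the 10 genes, and in 10 of 10 its 36 bases were split between neighbouring exons. In the 8 tested members and Adamts14, given 5′ to 3′ on the coding strand with the codons of the 3 zinc-binding histidines and the catalytic glutamate in capitals, the stretch was as follows.
Adamts1: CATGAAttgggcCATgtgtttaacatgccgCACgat
Adamts4: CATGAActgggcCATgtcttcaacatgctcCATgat
Adamts5: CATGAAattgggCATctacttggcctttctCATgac
Adamts7: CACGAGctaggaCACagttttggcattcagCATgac
Adamts12: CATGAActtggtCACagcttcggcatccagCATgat
Adamts6: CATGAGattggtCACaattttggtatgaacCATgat
Adamts10: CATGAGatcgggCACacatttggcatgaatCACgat
Adamts2: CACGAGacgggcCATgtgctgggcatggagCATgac
Adamts14: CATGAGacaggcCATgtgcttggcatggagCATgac

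On GRCm38 this stretch lies in exons 7 and 8 of both Adamts7 (chr9:90179456-90180643, plus strand) and Adamts12 (chr15:11241529-11255567, plus strand), the positions including the intron between them. It lies in exons 8 and 9 of Adamts6 (chr13:104352847-104366812, plus strand), exons 9 and 10 of Adamts10 (chr17:33538157-33538282, plus strand), and exons 7 and 8 of both Adamts2 (chr11:50775403-50776137, plus strand) and Adamts14 (chr10:61225462-61227123, minus strand). In the hyalectanases it lies in exons 3 and 4 of Adamts1 (chr16:85799188-85799545, minus strand) and of Adamts4 (chr1:171253210-171253918, plus strand), and in exons 2 and 3 of Adamts5 (chr16:85878012-85887826, minus strand). The intron interrupts the stretch after 10 bases in Adamts1, Adamts4, Adamts5 and Adamts15, and after 17 bases in the other 6 members. Within pairs, 33 of the 36 bases were identical between Adamts2 and Adamts14, 29 between Adamts6 and Adamts10, 28 between Adamts7 and Adamts12, 22 between Adamts1 and Adamts5, and 21 between Adamts4 and Adamts5. Aligned over the whole coding sequence, these pairs were 62.0% to 66.8% identical in bases. The longest run shared by transcripts of any 2 members was 46 bases, between Adamts10 and Adamts12, and no pair compared below as a ratio shared more than 24.

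Between 29096544 and 31651826 counts fell on genes in each library. The knocked-down gene itself, Hdac4, had 1243, 1204 and 1136 counts in control libraries and 950, 927 and 887 in Hdac4-knockdown libraries, which left 73.6% of the control level (log2 fold change -0.44, SE 0.057, edgeR adjusted p = 8.98e-07), although 3536 of its 15813 exon bases are shared with the antisense gene Gm26720. The pre-osteoblast label was checked against marker lists. Alpl had 3 counts or fewer in every library, and Sp7 had 4, 7 and 2 counts in control libraries and 74, 112 and 68 in Hdac4-knockdown libraries. Of the 6 osteoblast markers tested 5 were higher and 1, Spp1, was lower after knockdown. Among those 5, Runx2 changed least, with a log2 fold change of 0.19 and overlapping groups. All 5 skeletal muscle markers were lower, with a summed level of 821 to 866 CPM (counts scaled to a common library size, that is, normalized CPM) in control libraries and 111 to 128 CPM in Hdac4-knockdown libraries. Among them, Des, Myod1 and Myog averaged 737, 67.9 and 16.7 CPM in control libraries. In the same libraries Spp1 and Runx2 averaged 3152 and 69.8 CPM and Ibsp had 0 counts. The markers thus bear out the pre-osteoblast label of the control cells only in part. Of 5 fibroblast markers 4 were higher and 1 was lower, both adipocyte markers tested were lower, and 1 of the 2 chondrocyte markers tested, Col2a1, was higher. By the same call, defined below, 38.0% of all genes tested were higher and 37.1% lower. Macrophage markers summed to 1.64 to 2.75 CPM in control libraries and 5.1 to 6.08 CPM in Hdac4-knockdown libraries. Endothelial markers summed to 0.262 to 0.421 CPM and 2.81 to 3.15 CPM. Of the 3 macrophage markers tested 2 were higher and 1 was not called, and the 1 endothelial marker tested was higher. The part of these marker shifts in the ADAMTS results was not tested, and in bulk RNA fewer cells of a type and less RNA per cell cannot be told apart.

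After Hdac4 knockdown, the levels of ADAMTS genes in MC3T3-E1 cells moved in both directions. Adamts12, Adamts2, Adamts10, Adamts4 and Adamts5 were upregulated, and Adamts6, Adamts7 and Adamts1 were downregulated. Thus 5 of the 8 tested members were called higher and 3 lower by the quasi-likelihood test of edgeR. A call required both an adjusted p under 0.05 and a log2 change of more than 0.05 either way. Among all 14531 genes tested, 38.0% were called higher and 37.1% lower, 75.1% in all, so a call alone does not set these genes apart. The 3 libraries of one group lay outside the 3 of the other for 8 of the 8 tested members and for 76.8% of all genes tested. A called change beyond 1 on the log2 scale, which 27.1% of all genes tested reached, was seen in 6 of the 8. The median log2 fold change was 0.82 over the 8 members and 0.014 over all genes tested. For every single-gene exact permutation test of 3 libraries against 3, the smallest possible p is 0.1, and each of the 8 reached it.

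**Figure D1:**
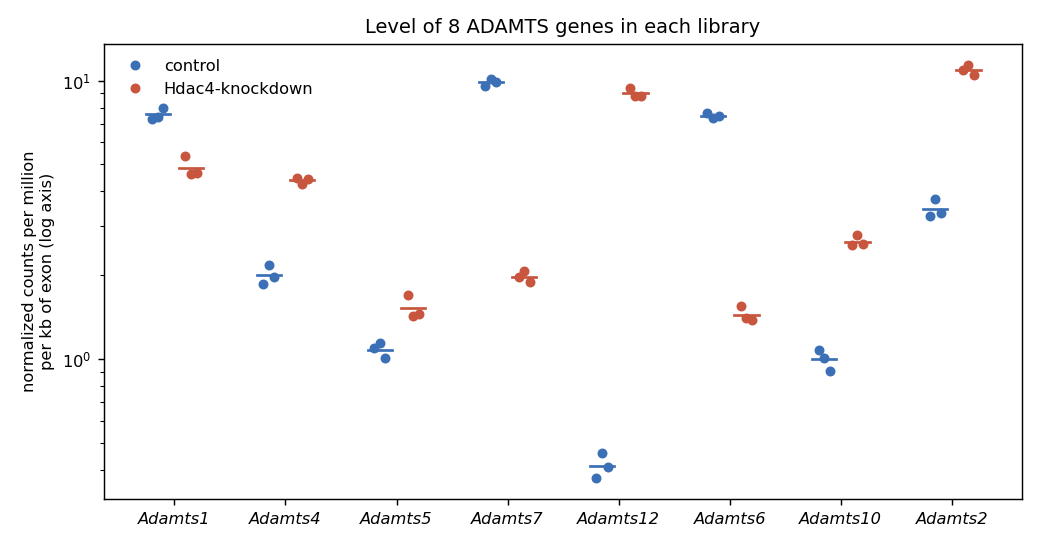
Normalized level in CPM per kilobase of exon (log axis) of the 8 tested ADAMTS genes in each library. Points are libraries (blue, control, n = 3; red, Hdac4-knockdown, n = 3) and lines are group means. The 2 groups do not overlap for any of the 8 genes, with the widest gap for Adamts12.

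The COMP-cleaving paralogs Adamts7 and Adamts12 moved in opposite directions and changed places. Adamts12 (ENSMUSG00000047497, chr15:11064790-11349231) was counted 125, 150 and 128 times in control libraries and 3178, 3095 and 2895 times in Hdac4-knockdown libraries. Every Hdac4-knockdown library was thus far above every control library, and the normalized level rose from 4.53 ± 0.462 to 98.2 ± 3.8 CPM (SD, n = 3), a 21.7-fold increase (log2 fold change 4.44, SE 0.0733, edgeR adjusted p = 1.15e-20). By p-value, Adamts12 ranked 62 among the 14531 genes. Adamts7 (ENSMUSG00000032363, chr9:90163069-90208071), a protease also known from vascular smooth muscle, was counted 1835, 1896 and 1771 times in control libraries and 383, 419 and 358 times in Hdac4-knockdown libraries. All 3 Hdac4-knockdown libraries lay below all 3 control libraries, with the level falling from 61.8 ± 1.67 to 12.4 ± 0.555 CPM (SD, n = 3), 20.1% of control (log2 fold change -2.31, SE 0.0622, edgeR adjusted p = 2.38e-17). Of the 6282 exon bases of Adamts7, 122 are shared with Tbc1d2b on the other strand. Reads of an unstranded library cannot be assigned to a gene there, and those listed as ambiguous are left out of the counts. Comp itself, their shared substrate, was counted 1, 0 and 2 times in control libraries and 24, 20 and 17 times in Hdac4-knockdown libraries.

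The ratio of the paralogs within a library does not depend on the normalization between libraries. Per kilobase of exon, the log2 ratio of Adamts7 to Adamts12 was 4.67, 4.46 and 4.59 in control libraries and -2.25, -2.09 and -2.22 in Hdac4-knockdown libraries, a difference of -6.76. Adamts7 was therefore the more abundant of the pair in each control library and Adamts12 in each Hdac4-knockdown library.

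The microfibril-associated paralogs showed the same kind of exchange. Adamts6 (ENSMUSG00000046169, chr13:104287835-104496695) was counted 1828, 1714 and 1653 times in control libraries and 375, 352 and 325 times in Hdac4-knockdown libraries. The groups were well separated, and the level fell from 58.3 ± 1.32 to 11.3 ± 0.729 CPM (SD, n = 3), 19.3% of control (log2 fold change -2.37, SE 0.0652, edgeR adjusted p = 3.38e-17). Adamts10 (ENSMUSG00000024299, chr17:33524204-33553782), mutated in a form of Weill-Marchesani syndrome, was counted 273, 249 and 214 times in control libraries and 655, 739 and 641 times in Hdac4-knockdown libraries. It was higher in each Hdac4-knockdown library than in any control library, rising 2.64-fold from 8.25 ± 0.715 to 21.8 ± 0.983 CPM (SD, n = 3; log2 fold change 1.40, SE 0.0868, edgeR adjusted p = 1.57e-11). The log2 ratio of Adamts6 to Adamts10 per kilobase was 2.83, 2.87 and 3.03 in control libraries and -0.72, -0.99 and -0.90 in Hdac4-knockdown libraries, a difference of -3.78, so that the pair also changed order. The annotated exons of Adamts10 add up to 8254 bases, whereas its longest transcript has 4121, and its level per kilobase depends on which length is used.

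Of the procollagen N-proteinases, Adamts2 and Adamts14 were expressed, and Adamts3 had 0 counts in all 6 libraries. Adamts2 (ENSMUSG00000036545, chr11:50602084-50807573), the enzyme deficient in dermatosparactic Ehlers-Danlos syndrome, was counted 931, 1049 and 895 times in control libraries and 3164, 3429 and 2948 times in Hdac4-knockdown libraries. The Hdac4-knockdown libraries were all above the control libraries, and the level rose 3.16-fold, from 32.3 ± 2.42 to 102 ± 4.23 CPM (SD, n = 3; log2 fold change 1.66, SE 0.0574, edgeR adjusted p = 1.27e-15). Adamts14, the one other ADAMTS protease gene that could be tested, went the other way, with 1812, 1819 and 1625 counts in control libraries and 1056, 1197 and 1049 in Hdac4-knockdown libraries (log2 fold change -0.74, SE 0.0549, edgeR adjusted p = 2.74e-10). The log2 ratio of Adamts2 to Adamts14 per kilobase was -1.81, -1.64 and -1.71 in control libraries and 0.74, 0.67 and 0.65 in Hdac4-knockdown libraries, a difference of 2.40. Adamts14 was the more abundant N-proteinase transcript in control libraries, and Adamts2 in Hdac4-knockdown libraries. Over the same comparison, the 5 procollagen chains on the list were called higher, where 38.0% of all genes tested were. The rise was uneven, with log2 fold changes of 5.03 for Col1a1, 2.82 for Col1a2, 5.93 for Col2a1, 0.23 for Col3a1 and 2.08 for Col5a1. The summed level of the chains was 3566 to 3735 CPM in control libraries and 22771 to 23758 CPM in Hdac4-knockdown libraries. Of the latter, Col1a1 and Col1a2 held 11004 and 8563 CPM on average.

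The hyalectanases did not all move in one direction, with Adamts4 and Adamts5 higher and Adamts1 lower. Adamts4 (ENSMUSG00000006403, chr1:171250421-171260637), also called aggrecanase, was counted 273, 314 and 270 times in control libraries and 667, 663 and 643 times in Hdac4-knockdown libraries. Its level rose 2.2-fold from 9.63 ± 0.79 to 21.1 ± 0.52 CPM (SD, n = 3; log2 fold change 1.14, SE 0.0832, edgeR adjusted p = 2.20e-10). Adamts5 (ENSMUSG00000022894, chr16:85856173-85901828), the main aggrecanase of mouse cartilage, was counted 364, 367 and 310 times in control libraries and 569, 499 and 472 times in Hdac4-knockdown libraries. It had the smallest change of the 8, 1.41-fold from 11.7 ± 0.72 to 16.5 ± 1.62 CPM (SD, n = 3; log2 fold change 0.50, SE 0.0907, edgeR adjusted p = 6.00e-05), with no overlap between the groups. Adamts1 (ENSMUSG00000022893, chr16:85793827-85803113), which also cuts versican and nidogens, was counted 1180, 1176 and 1206 times in control libraries and 880, 789 and 742 times in Hdac4-knockdown libraries. This decrease, from 40.0 ± 1.97 to 25.8 ± 2.23 CPM (SD, n = 3), left 64.5% of the control level (log2 fold change -0.63, SE 0.0679, edgeR adjusted p = 7.18e-08).

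Adamts1 and Adamts5 are neighbours on chromosome 16 and both are transcribed from the minus strand, yet they moved in opposite directions. Their log2 ratio per kilobase was 2.72, 2.71 and 2.99 in control libraries and 1.65, 1.69 and 1.68 in Hdac4-knockdown libraries, a difference of -1.13. Adamts1 remained the more abundant of the 2 in each library. Between Adamts4 and Adamts5, which both rose, the log2 ratio was 0.75, 0.94 and 0.97 in control libraries and 1.39, 1.58 and 1.61 in Hdac4-knockdown libraries, a difference of 0.64. Of 9 pairs listed, 5 had at least 10 counts in every library for both genes. For 5 of these 5 the ratios of the groups did not overlap (two-sided exact permutation test, p = 0.1 before and after adjustment over the 5 pairs, the smallest p that 3 libraries against 3 allow). Where the genes of a pair moved in opposite directions without overlap, this follows from the single-gene results and adds no further evidence. Only for Adamts4 and Adamts5, which both rose, could the ratio have come out otherwise.

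**Figure D2:**
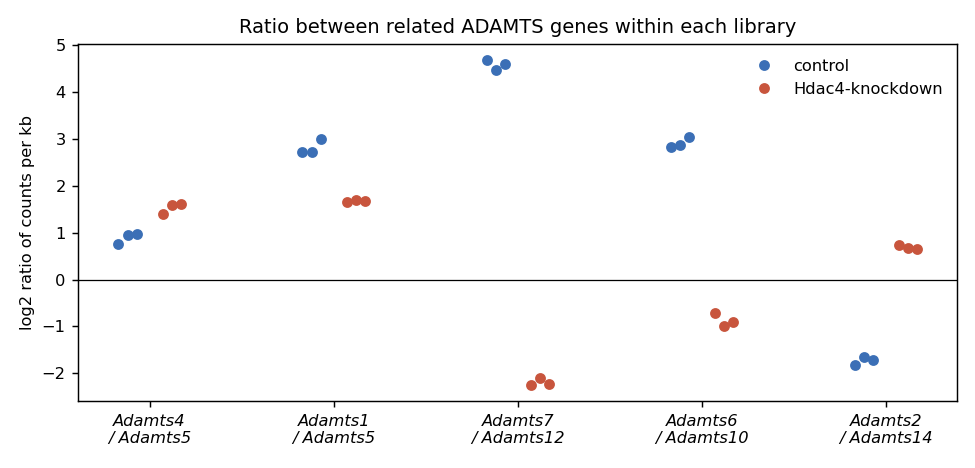
Log2 ratio of counts per kilobase of exon between related or neighbouring ADAMTS genes in each library (blue, control, n = 3; red, Hdac4-knockdown, n = 3). A value above 0 means that the first gene of the pair was the more abundant, and the sign changes between groups for Adamts7/Adamts12, Adamts6/Adamts10 and Adamts2/Adamts14.

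The hyalectanases Adamts9 and Adamts15 were not detectable or barely so. Adamts9 (ENSMUSG00000030022, chr6:92772699-92943492) had 0 counts in all 6 libraries, which allows up to 3 counts per library, or 0.093 to 0.105 CPM. Adamts15 (ENSMUSG00000033453, chr9:30899155-30922452) had 4, 2 and 0 counts in control libraries and 0 in each Hdac4-knockdown library, so that no difference could be shown at this depth. These limits cover counting error only. Neither gene passed the filter on low counts. Of the 9 ADAMTS protease genes outside the list, 8 were too low to be tested as well. The highest of those 8 counts was 7, for Adamts13, which had 0 counts in each control library and 5, 7 and 2 in Hdac4-knockdown libraries.

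Compared per kilobase of exon, the order of the members by level differed between the groups. In control libraries it ran from Adamts7 (9.84 ± 0.265 CPM per kb, SD, n = 3) through Adamts1, Adamts6, Adamts2, Adamts4, Adamts5 and Adamts10 to Adamts12 (0.415 ± 0.0423 CPM per kb). Adamts1 and Adamts6 overlapped in range, as did Adamts5 and Adamts10, and these neighbours did not differ beyond their spread. In Hdac4-knockdown libraries Adamts2 was highest (10.9 ± 0.453 CPM per kb, SD, n = 3), followed by Adamts12 (8.99 ± 0.348 CPM per kb), Adamts1, Adamts4, Adamts10, Adamts7, Adamts5 and Adamts6 (1.45 ± 0.0935 CPM per kb). There, the ranges of Adamts5 and Adamts6 overlapped and those of the other neighbours did not. With the longest transcript as length, Adamts10 moved ahead of Adamts5 in control libraries and ahead of Adamts4 in Hdac4-knockdown libraries, and the other places were the same.

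As shares of the members' summed level per kilobase, Adamts7, Adamts1 and Adamts6 made up 30%, 23% and 22.8% on average in control libraries, and 5.37%, 13.2% and 3.93% in Hdac4-knockdown libraries. Adamts2 and Adamts12 made up 10.5% and 1.26% in control libraries, and 29.7% and 24.4% in Hdac4-knockdown libraries. The summed level itself moved far less than its make-up, from 32.2, 33.4 and 33 CPM per kb in control libraries to 38, 36.7 and 35.7 in Hdac4-knockdown libraries.

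**Figure D3:**
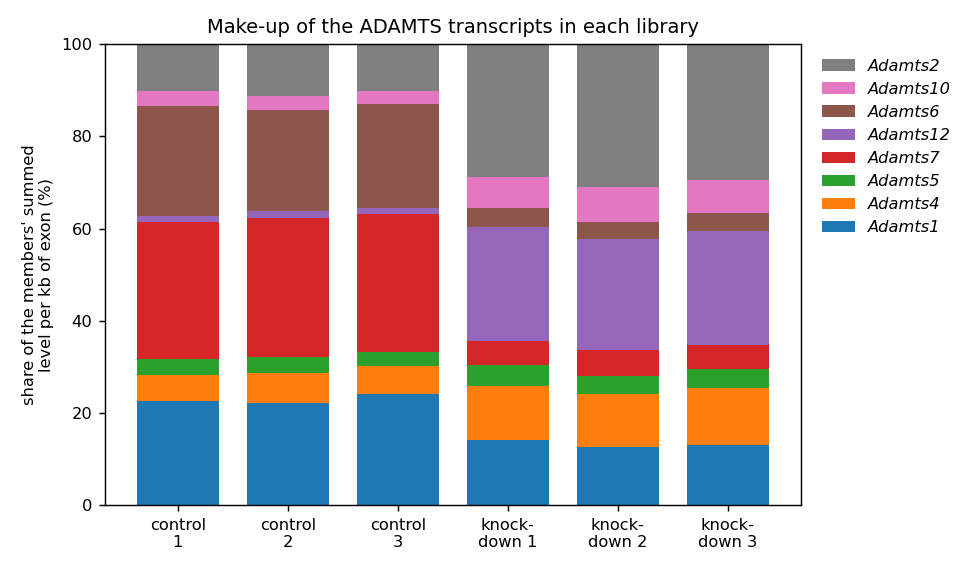
Share (%) of each ADAMTS gene in the members' summed level per kilobase of exon, for each of the 3 control and 3 Hdac4-knockdown libraries. Adamts7 and Adamts6 shrink and Adamts12 and Adamts2 grow in each Hdac4-knockdown library, with little difference between libraries of a group.

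Promoter sequences were available for 4 of the 10 members in the RefSeq table used here (GRCm38.p6, a short window around each gene start, of the same length for all genes), namely Adamts1, Adamts2, Adamts9 and Adamts12. Those of the 2 members with the highest level after knockdown and of the 1 downregulated member are shown, 5′ to 3′ on the gene's strand. Capitals mark matches to an SP1-type GC box (GGGCGG) or a TATA box (TATAAA) on either strand. They lie at chr15:11064523-11064822 (plus strand, Adamts12), chr11:50601835-50602134 (plus strand, Adamts2) and chr16:85803064-85803363 (minus strand, Adamts1).
Adamts12: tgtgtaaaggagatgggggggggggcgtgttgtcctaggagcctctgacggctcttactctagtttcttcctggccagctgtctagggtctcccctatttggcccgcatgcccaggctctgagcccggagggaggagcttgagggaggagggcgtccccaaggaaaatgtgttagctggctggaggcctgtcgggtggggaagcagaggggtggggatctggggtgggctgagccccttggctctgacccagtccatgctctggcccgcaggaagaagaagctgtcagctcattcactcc
Adamts2: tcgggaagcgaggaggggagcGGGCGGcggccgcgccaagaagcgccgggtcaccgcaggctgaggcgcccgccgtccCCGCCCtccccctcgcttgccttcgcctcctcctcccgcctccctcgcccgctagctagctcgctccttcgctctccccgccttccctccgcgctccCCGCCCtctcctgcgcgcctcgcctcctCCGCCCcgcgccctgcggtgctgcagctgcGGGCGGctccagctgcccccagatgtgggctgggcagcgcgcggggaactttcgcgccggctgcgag
Adamts1: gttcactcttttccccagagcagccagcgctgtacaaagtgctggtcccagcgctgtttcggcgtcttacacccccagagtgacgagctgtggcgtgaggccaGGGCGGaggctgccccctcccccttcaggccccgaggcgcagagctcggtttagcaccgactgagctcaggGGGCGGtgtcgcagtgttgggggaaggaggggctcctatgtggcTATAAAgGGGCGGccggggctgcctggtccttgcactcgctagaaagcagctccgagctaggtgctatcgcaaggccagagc

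The 3 promoters differed in composition. That of Adamts2 was 77.3% G or C with 41 CpG dinucleotides and 5 GC boxes, that of Adamts1 64.7% with 18 CpG and 3 GC boxes, and that of Adamts12 62.0% with 7 CpG and 0 GC boxes. The TATA box of Adamts1 begins 32 bases before the start. GC boxes are present in 35.7% and TATA boxes in 13.6% of the 32851 promoters in the table. The E-box (CANNTG, bound by basic helix-loop-helix factors), searched on both strands, matched at 3 positions in Adamts2, 1 in Adamts12 and 0 in Adamts1, and is present in 72.3% of all promoters. A RUNX site (TGTGGT, 16.8% of all promoters) or an AP-1 site (TGANTCA, 7.8%) was found in 0 of the 3. A match is a description of letters and not a bound site.

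The ADAMTS-like proteins, which share the non-catalytic domains of the family but have no protease domain, were counted on a list of 7 genes. Of these 5 were tested, 4 were upregulated, where 38.0% of all genes tested were, and 1 was not called. Adamtsl4, linked to lens zonule disease, rose 5.85-fold from 24.2 ± 2.43 to 142 ± 8.08 CPM (SD, n = 3; log2 fold change 2.55, edgeR adjusted p = 8.21e-18). Adamtsl1 was counted 36, 29 and 36 times in control libraries and 511, 574 and 524 times in Hdac4-knockdown libraries (log2 fold change 3.92, edgeR adjusted p = 6.33e-16). Adamtsl3 and Adamtsl5 had log2 fold changes of 2.44 and 0.80. Thsd4 had 16 to 26 counts in every library and a log2 fold change of 0.19 (SE 0.324, edgeR adjusted p = 0.615). The median over the 5 was 2.44.

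**Figure D4:**
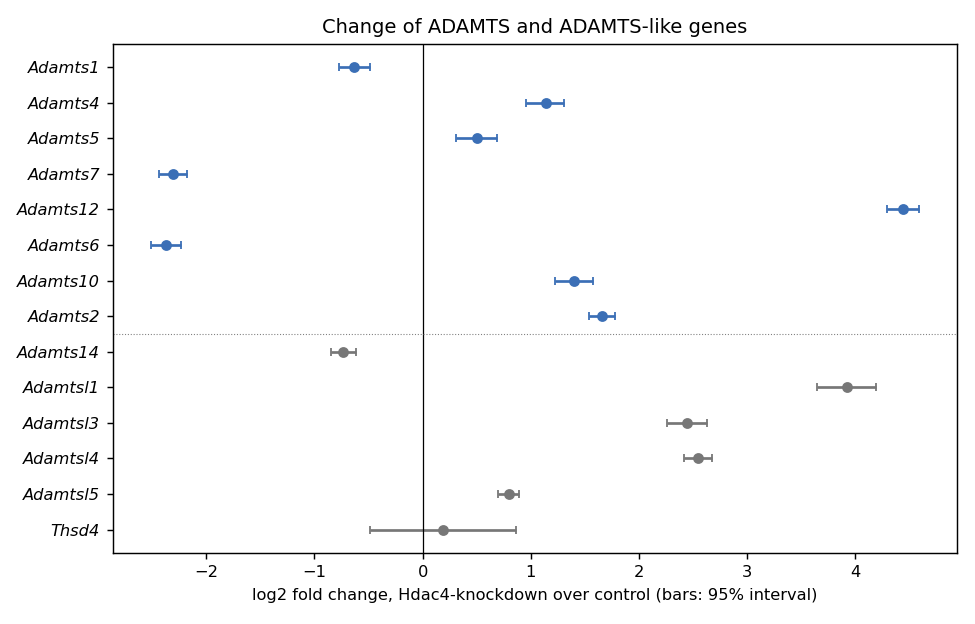
Log2 fold change of Hdac4-knockdown over control for the 8 tested members (blue), and for Adamts14 and the 5 tested ADAMTS-like genes (grey). Points are edgeR estimates and bars their 95% intervals (3 libraries per group). The interval of Thsd4 spans 0 and the others do not.

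Genes that act on or with these proteases were taken from lists of inhibitors, maturation enzymes and substrates, 36 genes in all, of which 28 were tested. Of the 28, 19 were called higher, 6 lower and 3 not called, with a median log2 fold change of 0.76. Among all genes tested, 38.0% were called higher and 37.1% lower, 75.1% in all. Among inhibitors, Timp3, the principal tissue inhibitor of ADAMTS4 and ADAMTS5, rose 4.37-fold from 128 ± 5.16 to 558 ± 38.6 CPM (SD, n = 3; log2 fold change 2.13, edgeR adjusted p = 3.12e-18). Timp2 rose 2.23-fold (log2 fold change 1.16), whereas Timp1 was at 329 ± 7.64 CPM in control and 315 ± 12.2 CPM in Hdac4-knockdown libraries (SD, n = 3; edgeR adjusted p = 0.187). Lrp1, the endocytic receptor that clears several ADAMTS proteases, rose 1.51-fold. Fbln1, a cofactor of ADAMTS1, fell to 18.9% of control (log2 fold change -2.40, edgeR adjusted p = 7.85e-17), and Sdc4, a cell surface proteoglycan that interacts with ADAMTS5, fell to 73.7%.

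Of 8 genes for enzymes that mature the proteases 6 were tested, of which 3 were called higher, 1 lower and 2 not called. Over all genes tested, 75.1% were called in either direction, so these counts do not set the enzymes apart. Furin, a convertase of such propeptides, was at 201 ± 5.42 CPM in control and 211 ± 2.36 CPM in Hdac4-knockdown libraries (SD, n = 3; log2 fold change 0.06, edgeR adjusted p = 0.15). It was called higher with library size alone, with upper quartile normalization and when genes under 10 counts in any library were dropped. Pcsk7 was not called either (log2 fold change -0.08, edgeR adjusted p = 0.204). Pofut2 and B3glct, which add fucose and then glucose to thrombospondin repeats, rose together with log2 fold changes of 0.46 and 0.75. Dpy19l1, a mannosyltransferase of such repeats, rose by 0.90 on the log2 scale, and its paralog Dpy19l3 had a log2 fold change of -0.16 (edgeR adjusted p = 0.0201). The call of Dpy19l3 was lost without control replicate 2, Hdac4-knockdown replicate 2 or Hdac4-knockdown replicate 3, with library size alone, with upper quartile normalization, with the filter at 10 counts, and with a fold change threshold of 1 on the log2 scale.

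Of the substrates tested, 4 of 4 proteoglycans and 5 of 5 procollagen chains were called higher. Among the 7 microfibril and other substrates tested, 4 were called higher and 3 lower. Over all genes tested, 38.0% were called higher and 37.1% lower. Versican (Vcan), the hyalectan of these cells, rose 1.71-fold from 406 ± 8.41 to 693 ± 28.8 CPM (SD, n = 3; log2 fold change 0.77, edgeR adjusted p = 7.87e-13), while aggrecan (Acan) had 0 counts in all 6 libraries and Bcan and Ncan were too low to be tested. The small proteoglycans Bgn and Dcn rose 27.9-fold and 8.91-fold, and Fmod was counted 1, 0 and 1 times in control libraries and 1550, 1755 and 1561 times in Hdac4-knockdown libraries. Nidogen-1 (Nid1), a basement membrane linker cut by ADAMTS1, fell to 18.5% of control (log2 fold change -2.43, edgeR adjusted p = 3.69e-21), whereas Nid2 rose 2.2-fold. Fn1 rose 1.95-fold and Thbs1 fell to 66.7% of control. Among microfibril partners, Fbn1 was 1.11-fold higher and Ltbp1 fell to 71.1% of control, while Fbn2 had 0 counts in control libraries and at most 5 in Hdac4-knockdown libraries.

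**Figure D5:**
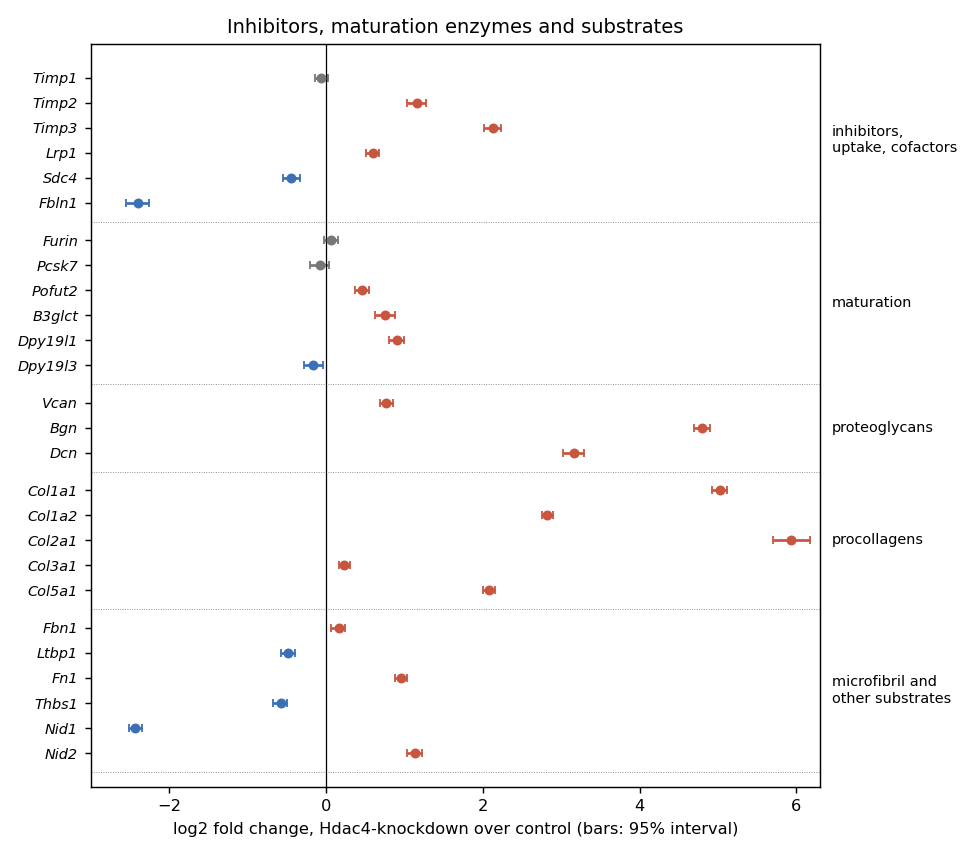
Log2 fold change of Hdac4-knockdown over control for tested inhibitors, maturation enzymes and substrates, with 95% intervals (3 libraries per group; red, called higher; blue, called lower; grey, not called). Fmod and Comp, with 3 counts or fewer in every control library, are left out. The 5 procollagens and 3 proteoglycans lie to the right of 0, and the other groups hold values on both sides.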

How the data were processed

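RNA from 3 control and 3 Hdac4-knockdown samples was made into poly-A selected, unstranded Illumina libraries. The authors deposited raw counts of reads per Ensembl gene for each library, and the submitters' processing notes name FastQC, STAR 2.7.3a, HTSeq 0.12.4 and mm10. The annotation and counting options are not given in the sources used here. Reads that the tables list outside genes, as ambiguous or as not unique (14.3% to 15% of each table's total) were left out, so reads from stretches shared by 2 genes are lost from both. Of 53801 identifiers, 53706 had a symbol, position and exon length in GENCODE M21 (GRCm38).

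Groups were tested on the counts as deposited, using edgeR 4.0.16 under R 4.3.3 (TMM, filterByExpr, quasi-likelihood F test, Benjamini-Hochberg adjustment over the 14531 genes tested), with calls as defined in the results. CPM are edgeR's counts scaled to a common library size with TMM factors, and SE derives from the F statistic. Levels of different genes were compared per kilobase of exon (union of annotated exons). Paralog ratios used an exact permutation test. Replicates of a group differed beyond sampling noise (chi-square per degree of freedom 3.38 to 9.15). Alternatives were DESeq2 1.42.0, limma-voom (limma 3.58.1), other normalizations and filters, a replicate block and leaving out each library. Sequences came from GENCODE M21 transcripts and the RefSeq promoter table, read with Biopython 1.88, and figures were drawn with matplotlib 3.10.9. The members, lists, pairs and motifs were chosen with earlier results of these data known, and named genes are the members, the genes of the lists and Hdac4.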

Additional observations from a re-analysis of the deposited data

How the results depend on the processing

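Each of the 8 tested members kept its direction and its call under 14 of 14 alternatives in normalization, filter, test, block or libraries (112 of 112 values), with the largest adjusted p, 0.00076, for Adamts5 and values of 0.42 to 0.59. Upper quartile normalization gave each of the 8 its highest or least negative value, Adamts12 at 4.53 and Adamts7 at -2.22 among them, and moved the median of all genes from 0.014 to 0.103. It turned Timp1 and Pcsk7, which were not called, to positive values. Without Hdac4-knockdown replicate 2, Timp1 was called lower. Without single libraries, the log2 fold change ranged from 4.36 to 4.51 for Adamts12, from -2.42 to -2.34 for Adamts6 and from -0.70 to -0.59 for Adamts1. Other ADAMTS genes called numbered 2 without a filter beyond 1 count and with DESeq2, where Adamts13 was added (log2 fold changes of 5.21 and 4.57 against control libraries at 0 counts), and 0 with a fold change threshold of 1 (log2). With that threshold, 4 members were called higher and 2 lower, Adamts5 and Adamts1 losing their calls, and inhibitor, maturation and substrate genes called numbered 13 in place of 25. The main fit did not use replicate numbers as a pairing. Same-numbered libraries of the groups showed little shared deviation, with correlations of -0.00521, 0.0956 and 0.0206. Whether they shared a batch was not tested. With the replicate block, 5 members were higher and 3 lower, 25 of the 28 other genes were called, and over all genes 10964 in place of 10914. Depth limits Adamts9, Adamts15 and the other genes left untested.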
